A study of Homo sapiens with 11 samples.

Results

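The mRNAs of 34 factors that build the 60S ribosomal subunit were examined for RNA recovered with RPS19, a protein of the 40S subunit. The members are a list of gene names, and a window counted as theirs when its gene annotation, split at colons, held one of those names. Of the 34 genes, 31 had an enriched window in at least 1 group, among 8697 genes with a window in any group. They held 518 of 93331 listed windows with RPS19 R101H, 548 of 86567 with R62W and 72 of 15402 with wild-type RPS19 (WT).

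The assay was eCLIP, in which cells are crosslinked with ultraviolet light, the RNA is cut, the protein is precipitated and the attached RNA is sequenced. The cells were HEK293T, an immortal line from human embryonic kidney with the SV40 large T antigen. The immunoprecipitates came from cells transfected with a plasmid that expressed V5-tagged RPS19 carrying R101H (2 replicates), R62W (3) or no substitution (WT, 3), and V5 antibody was used in each. Size-matched inputs (3) came from cells without a plasmid, so the cells' own RPS19 was present in all groups and the tagged protein was overexpressed in the immunoprecipitates alone. R101H and R62W are substitutions found in Diamond-Blackfan anemia, an inherited failure of red cell production. Whether replicates were grown as separate cultures is not in the labels, so the spread behind each p-value may be technical.

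The large subunit is assembled in the nucleolus around its rRNA, with the help of factors that fold, cut and modify the RNA. The PeBoW complex acts on early particles. The ATPase MDN1 strips factors from later particles together with its adaptor NLE1, and a complex around PELP1 helps to cut the second internal spacer of the precursor rRNA. RPS19 belongs to the other subunit, and the windows here are pieces of the mRNAs that encode these factors, not of rRNA.

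Each value below is the authors' log2 odds ratio of immunoprecipitate over input for a window of at most 100 bases, given as the mean with the lowest and highest passing replicate. A listed window was enriched (passed) in at least 2 replicates, with q of at most 0.2 in each, and a window that a list lacks has no value, which is not a value of 0. Reads were pooled over replicates in the deposited counts, and library totals are not in the tables. The median listed member window had 62 immunoprecipitate and 13 input reads with R101H, 57 and 16 with R62W, and 39.5 and 10 with WT. RPS19 itself had 15 windows with R101H, 22 with R62W and 28 with WT, with highest values of 6.89, 6.30 and 6.53. The medians of these windows were 4.32, 2.29 and 2.07. Input cells had no plasmid, so the RPS19 values may include RNA from the plasmid and do not measure recovery alone. A list of enriched windows does not measure expression, so the cell type could not be checked against markers.

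Sequence could be read at 6 windows that begin at, just before or just after an annotated transcript start of a member. Counts are per window, so they do not locate the 5′ ends of the recovered RNA. The letters are from a table of RefSeq promoters (GRCh38.p14) that holds 29 of the 34 members, and capitals mark bases from the transcript start in that table onwards. For GNL3 the RefSeq gene begins further upstream, at 52685920, so its small letters lie within the gene. The first 3 are whole windows, and the others give the first 30 bases of a longer window.
NLE1: gCTCTTTCTCCTCCACGTGGGGACGCAGG
RPF1: acggaagCAAAGGAGCCAAGACC
PELP1: ACTGGAACCCGGGGGAAG
SENP3: GTGACGTACTAATCGTGCGCCACCGCTGCC
GNL3: gctcgtcagtggcttcAGTTCACACGTGGC
NOP16: cggaaggagtttgttACACGAGGTCTGAGA

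These lie on chromosome 17 at 35142276 to 35142304 (NLE1, minus strand), chromosome 1 at 84479259 to 84479281 (RPF1, plus), chromosome 17 at 4704112 to 4704129 (PELP1, minus), chromosome 17 at 7561919 to 7561948 (SENP3, plus), chromosome 3 at 52686016 to 52686045 (GNL3, plus) and chromosome 5 at 176388584 to 176388613 (NOP16, minus). All are annotated as 5′ UTR. The SENP3 window had the highest value of those listed with both substitutions, at 1.64 and 2.44 in the R101H replicates and 1.52, 1.55 and 2.17 in the R62W replicates. NLE1 had 1.03 and 1.21 with R101H and 1.06 and 1.44 in the 2 R62W replicates that passed, and GNL3 had 0.84 and 1.59 with R101H and 0.83, 0.98 and 1.65 with R62W. The RPF1, PELP1 and NOP16 windows were listed with R62W only, at means of 2.59, 1.24 and 0.92. No member had a 5′ UTR window in the WT list, in which 3.49% of all windows were 5′ UTR and members held 72 windows. With R101H and R62W, 0.97% and 1.64% of member windows were 5′ UTR, against 3.88% and 4.03% of all windows. The absence with WT was not tested. The values of the substitutions overlapped at the SENP3, NLE1 and GNL3 windows.

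More of the 60S factor mRNAs were listed with the substitutions than with WT, and 1 gene, MDN1, held most of the WT windows. With R101H 31 of 34 members had a window, with R62W 29 and with WT 9, against 93.5%, 89.5% and 38% of the 8697 genes with a window in any list. The member shares of 91.2%, 85.3% and 26.5% were close to that background with the substitutions and below it with WT. That background leaves out genes never listed, while the 34 include 3 such members. Of the 31 members with a window in any list, 31, 29 and 9 were listed with R101H, R62W and WT. All 9 genes listed with WT (MDN1, RRP1, RRP1B, PELP1, NOP2, GNL3, GNL3L, LAS1L and SENP3) were also listed with both substitutions. Another 20 were listed with both substitutions and not with WT, and MAK16 and RPF2 with R101H alone. The share of all genes with these patterns is not given here, so these counts have no background. EIF6, which binds the 60S subunit and keeps it from joining the 40S subunit, and the assembly factors RRS1 and RRP15 were in no list.

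MDN1, the giant ATPase of late 60S maturation, had 208 windows with R101H, 201 with R62W and 48 with WT. The other members together had 310, 347 and 24. The ratio to WT was 4.33 for R101H and 4.19 for R62W in MDN1, and 12.9 and 14.5 in the other members, against 6.06 and 5.62 over all windows. By number of windows MDN1 had rank 1 of all genes with R101H, rank 2 with R62W and rank 42 with WT, a ranking that favours long mRNAs. It made up 40.2%, 36.7% and 66.7% of the member windows.

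These counts depended on how far down each list was read. With each list reduced to the 15402 windows with the smallest maximum q, MDN1 had 119 windows with R101H, 105 with R62W and 48 with WT. The other members had 28, 45 and 24, in 11, 14 and 9 genes in all. The maximum q is taken over 2 replicates with R101H and up to 3 in the other groups. There is 1 list per group, so list lengths carry no test.

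**Figure D1:**
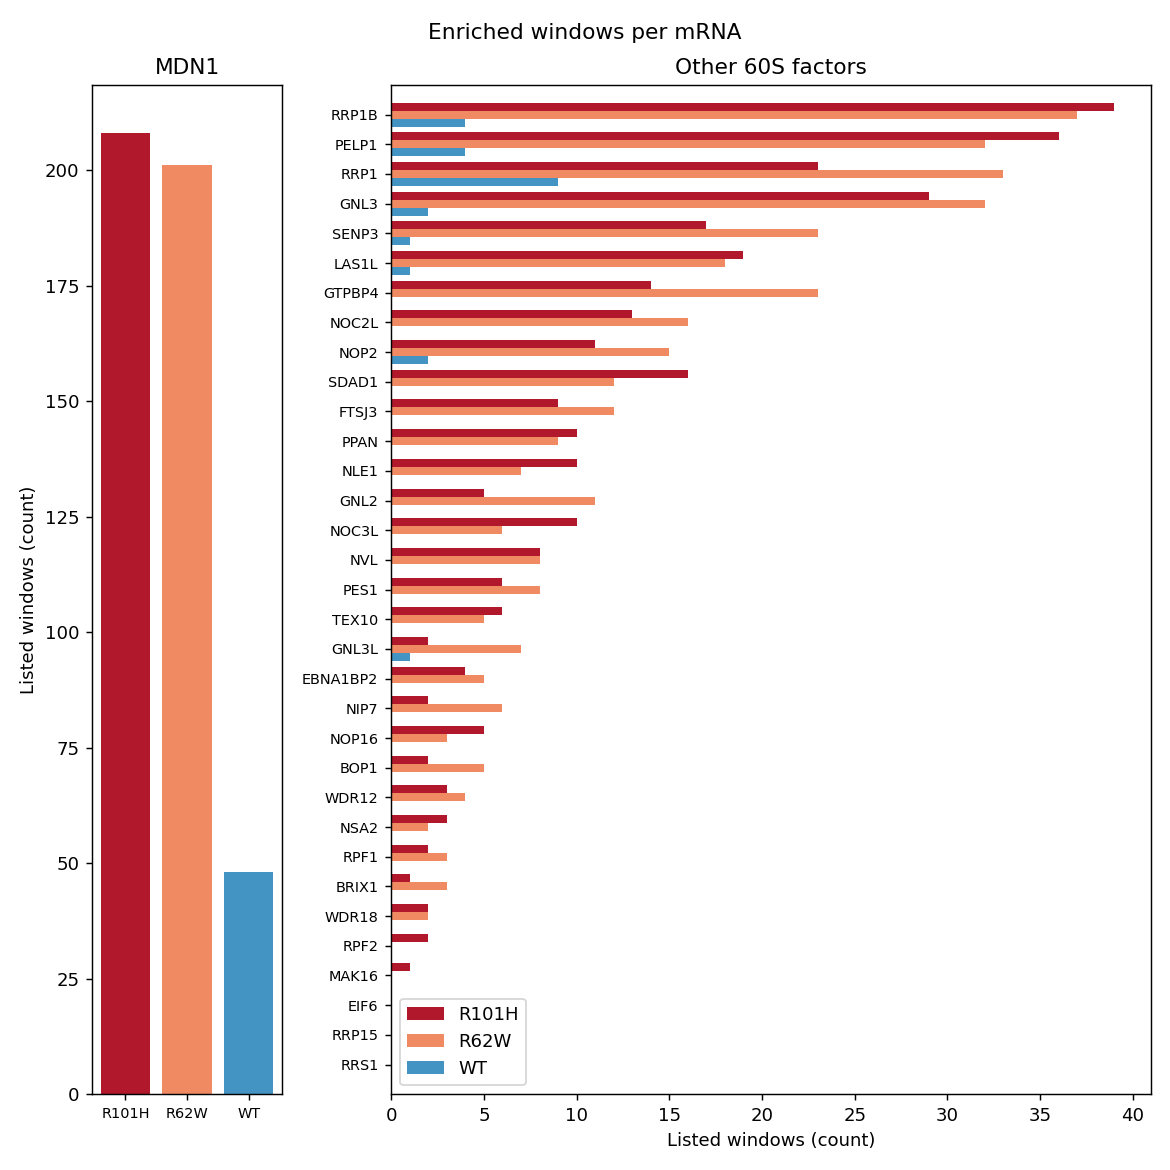
Number of listed windows (count, from 0) per 60S factor mRNA with R101H, R62W and WT, with MDN1 on its own axis at left and the other 33 members at right. MDN1 had 208, 201 and 48 windows, and no other member reached 40 in any list.

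In the PeBoW complex, PES1 had 6 windows with R101H and 8 with R62W, BOP1 had 2 and 5, and its partner WDR12 had 3 and 4. None was listed with WT. Their median values were 1.24 and 1.43 for PES1, 1.24 and 1.15 for BOP1, and 2.27 and 2.18 for WDR12, so PES1 and BOP1 lay below the 1.79 and 1.75 of all members other than MDN1. The highest PES1 window of the R101H list, in coding sequence on chromosome 22 (30579220 to 30579303), had 1.04 and 3.22 with R101H and 0.96, 2.00 and 2.51 with R62W, which overlap.

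Among the 13 assembly factors, the paralogs RRP1 and RRP1B held most windows. RRP1B had 39 windows with R101H, 37 with R62W and 4 with WT, of which 19, 20 and 1 lay in its 3′ UTR. RRP1 had 23, 33 and 9, of which 11, 21 and 7 were intronic. SDAD1 had 16 and 12 with the substitutions, with medians of 2.51 and 2.21, and its highest window, in the 3′ UTR on chromosome 4 (75949999 to 75950092), had 2.19 and 6.0 with R101H and 1.96 and 5.18 in the 2 passing R62W replicates. Replicates of 1 group thus differed at this window by more than the groups did. PPAN had 10 and 9 windows, and every one is shared with the readthrough gene PPAN-P2RY11, so the gene of origin is uncertain. With R101H and R62W, NOP16 had 5 and 3, EBNA1BP2 4 and 5, NSA2 3 and 2, RPF1 2 and 3, and BRIX1 1 and 3.

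The RNA methyltransferases, the Noc proteins and NIP7, a small factor of pre-60S particles, together gave 45 windows with R101H, 55 with R62W and 2 with WT. NOP2, which methylates cytosine in the large rRNA, had 11, 15 and 2, with both WT windows in coding sequence at 1.2 and 1.36. FTSJ3, the homolog of the yeast ribose methyltransferase Spb1, had 9 and 12 with the substitutions, NOC2L had 13 and 16, NOC3L 10 and 6, and NIP7 2 and 6. The highest NOC2L window was intronic (chromosome 1, 947061 to 947155) and had 3.98 and 4.29 with R101H, on 16 immunoprecipitate reads and an input count of 0, and it was listed in that group only.

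Of the nucleolar GTPases, GNL3 (nucleostemin) had 29 windows with R101H, 32 with R62W and 2 with WT. GTPBP4 had 14 and 23 and GNL2 had 5 and 11 with the substitutions, and GNL3L had 2, 7 and 1 in the 3 lists. GNL3 hosts snoRNAs in its introns, and a window annotated to a small RNA exon within it (chromosome 3, 52688882 to 52688961) was in all 3 lists. Its replicates had 1.05 and 2.02 with R101H, 1.82, 2.13 and 2.47 with R62W, and 1.39 and 1.94 in the 2 passing WT replicates. The R62W values overlapped those of both other groups. In GNL3 stop codon and 3′ UTR windows listed with both substitutions, the R101H means were higher. A 3′ UTR window (chromosome 3, 52694276 to 52694349) had 2.65 and 3.78 with R101H against 1.72, 2.06 and 2.83 with R62W, and the ranges again overlapped. Another 3′ UTR window (52694424 to 52694497) was listed with R62W only, at 1.58, 1.74 and 2.26. Over all shared 3′ UTR windows the median R101H minus R62W difference was 0.28, with 77.1% higher.

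In the PELP1 complex, PELP1 had 36 windows with R101H, 32 with R62W and 4 with WT, and LAS1L, the endonuclease of the complex, had 19, 18 and 1. SENP3, the SUMO protease, had 17, 23 and 1, of which 14, 17 and 1 are shared with the readthrough gene SENP3-EIF4A1. TEX10 had 6 and 5 and WDR18 had 2 and 2 with the substitutions. The highest PELP1 window of the R101H list, beside a 5′ splice site on chromosome 17 (4691278 to 4691377), had 2.76 and 3.74 with R101H, 2.30, 3.04 and 3.39 with R62W, and 2.05, 2.58 and 2.78 with WT. The mean was highest with R101H and lowest with WT, and the replicate ranges overlapped. NVL, another AAA ATPase of the nucleolus, had 8 windows with each substitution. NLE1 had 10 and 7.

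MDN1 windows differed from those of the other members in annotation. Coding windows made up 93.8% of MDN1 windows with R101H, 94.0% with R62W and 91.7% with WT. In the other members they made up 57.7% (exact Clopper-Pearson 95% interval 52.0 to 63.3), 56.2% (50.8 to 61.5) and 37.5% (18.8 to 59.4), close to the 53.7%, 53.2% and 35.8% of all windows. These intervals cover counting error only, and windows of a gene are not independent. Introns held 19.7%, 22.8% and 50% of the windows of the other members, against 10.7%, 13.5% and 31.4% of all windows. The WT share rests on 12 of 24 windows, 7 of them in RRP1. The 3′ UTR share of the other members was 16.8%, 14.7% and 8.33%, below the 26.3%, 23.2% and 21.4% of all windows.

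**Figure D2:**
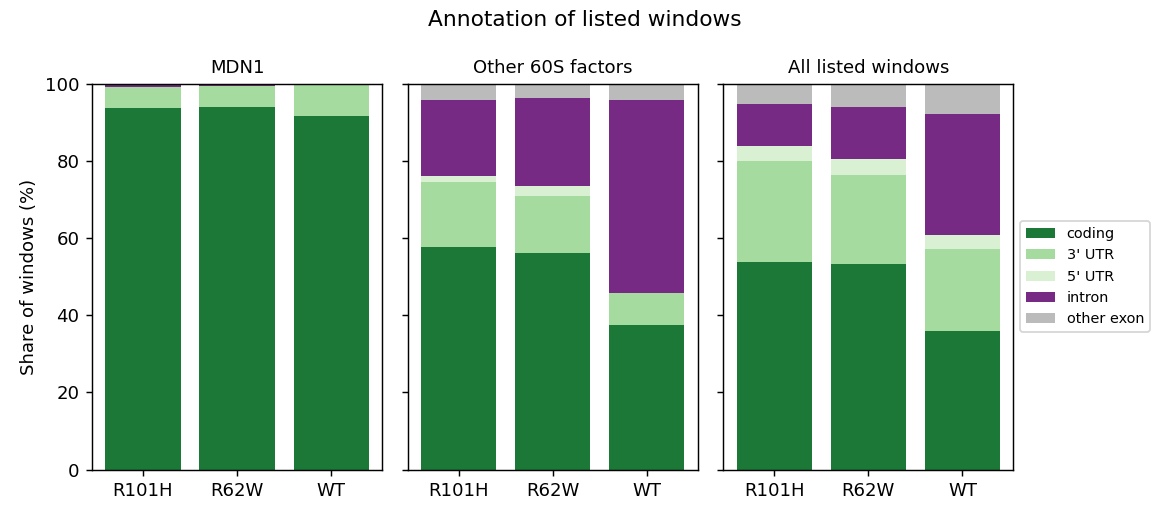
Share of listed windows (percent, from 0 to 100) by annotation with R101H, R62W and WT, for MDN1, the other 60S factors and all listed windows. MDN1 windows were coding in over 90% of cases in each list, and 12 of the 24 WT windows of the other members were intronic.

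Intronic windows outside MDN1 had a higher median than coding windows in each list. They lay in 15 of 30 other listed members with R101H, 11 of 28 with R62W and 4 of 8 with WT. The share of all listed genes with an intronic window is not given here, so these member counts have no background. RRP1 gave 11 with R101H, 21 with R62W and 7 with WT, PELP1 gave 11, 14 and 2, LAS1L gave 10, 9 and 1, GTPBP4 gave 6, 12 and 0, RRP1B gave 5, 4 and 2, SENP3 gave 2, 7 and 0, and GNL3 gave 4, 4 and 0. The median of all intronic windows over members other than MDN1 was 2.34 with R101H, 2.19 with R62W and 2.40 with WT, against 1.55, 1.53 and 1.35 for coding windows. Over all windows the intronic medians were 2.31, 2.30 and 2.79 and the coding medians 1.93, 1.82 and 1.72. Annotation and input count were not separate. With an input count of at least 10, the coding share of all member windows went from 72.2% to 83.2% with R101H and from 70.1% to 80.5% with R62W. With WT it went from 73.6% to 71.1%. The part of low input counts in the intronic medians was not tested. Reads in an intron window came from unspliced or intron-retaining RNA, or from RNA not spliced as annotated, which these counts cannot tell apart.

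The RRP1 window with the highest WT value lies in an intron, annotated as near a 5′ splice site, on chromosome 21 (43801282 to 43801381). Its replicates had 2.94 and 4.62 with R101H, 2.71, 4.79 and 5.13 with R62W, and 4.58 and 4.70 in the 2 WT replicates that passed. The groups overlapped, and pooled input counts were 2, 2 and 0. The R101H minus WT difference was -0.86 (SE 0.63) and that of R62W minus WT -0.43 (SE 0.74), with limma adjusted p = 0.451 and 0.918. The lowest R101H minus WT difference of any member window was in an RRP1B intron (chromosome 21, 43689988 to 43690087), a window that R62W did not list and that was picked after its values were seen. It had 1.38 and 2.20 with R101H and 2.39 and 3.0 in the 2 passing WT replicates, a difference of -0.91 (SE 0.49, limma adjusted p = 0.328). Another 3 RRP1 intron windows were listed with WT and with neither substitution, at means of 2.63, 2.33 and 1.45.

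Along MDN1, values were higher towards the 3′ end of the coding sequence. The gene lies on the minus strand of chromosome 6 (89642498 to 89819794), and 204 coding windows, covering 15265 bases, were in at least 1 list. These were split by position into 6 parts of 34 windows each. From the first part to the last, the median log2 odds ratio was 1.79, 2.00, 2.69, 2.44, 2.91 and 3.76 with R101H and 1.76, 1.80, 2.32, 2.23, 2.71 and 2.96 with R62W. With WT the numbers of listed windows were 0, 4, 5, 8, 10 and 17, with medians of 2.07, 1.84, 2.10, 2.29 and 2.42 from the second part on. In the fifth part and the last, every one of the 34 windows was listed with both substitutions, and in the fourth 33 were listed with each.

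The median immunoprecipitate count per window was 39 in the first part and 90.5 in the last with R101H, and 37.5 and 104 with R62W. Median input counts were 12 and 8 with R101H and 13.5 and 12 with R62W. Spearman's rho between position and value was 0.65 over 195 windows with R101H, 0.57 over 189 with R62W and 0.21 over 44 with WT. It is given as a description, since windows of a gene share libraries and neighbouring reads. Among genes with at least 40 coding windows, the median rho was 0.26 over 185 genes with R101H, 0.20 over 153 with R62W and 0.14 over 10 with WT. Of these genes 159, 125 and 6 had a rho above 0, and 4, 4 and 2 had a rho above that of MDN1. Higher values towards the 3′ end were therefore common among long coding sequences in the substitution lists, and MDN1 stood near the upper end.

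**Figure D3:**
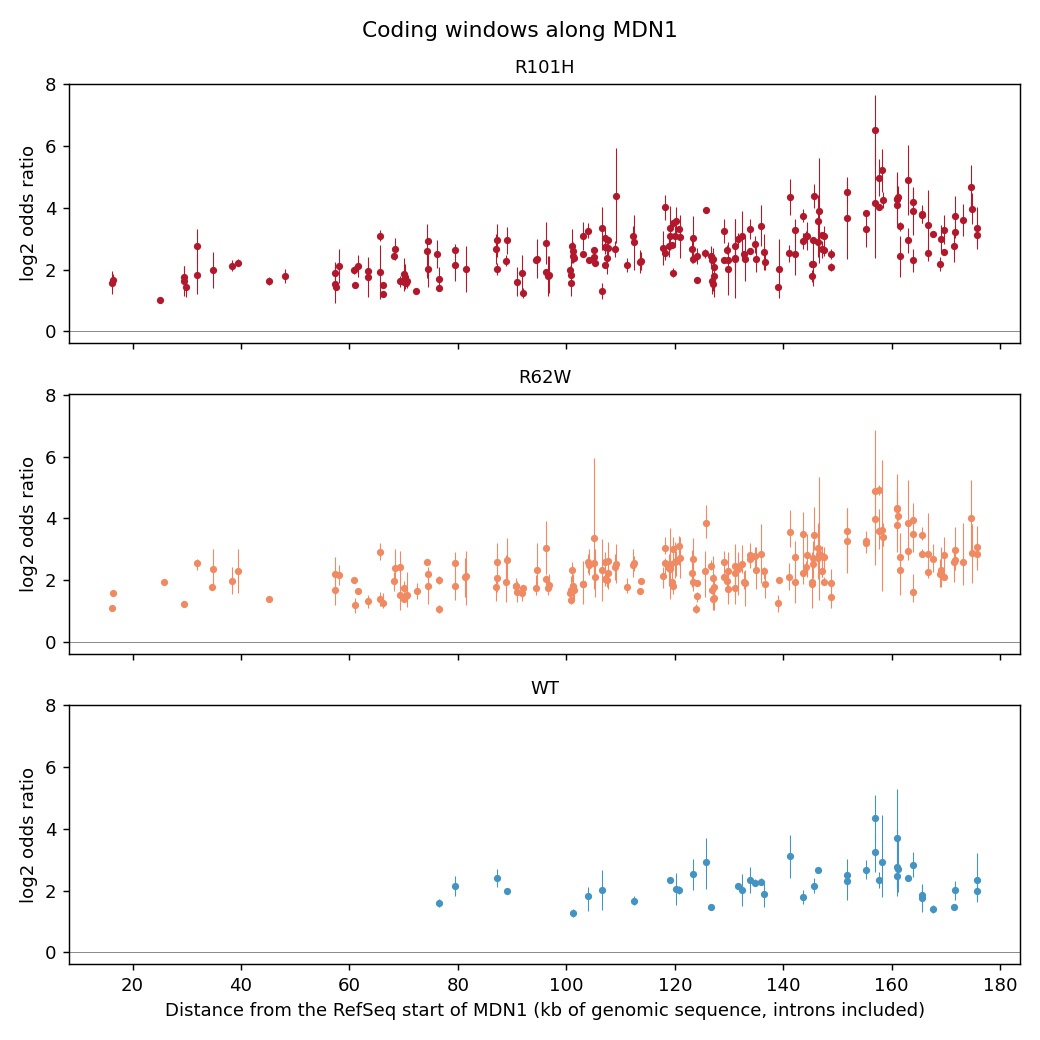
Log2 odds ratio of MDN1 coding windows (points, mean of passing replicates; bars, lowest to highest replicate) against distance from the RefSeq start in kb of genomic sequence, for R101H, R62W and WT from top to bottom. Values rise to the right with both substitutions, and the WT windows are sparse on the left, with 0 of 34 listed in the first part.

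The MDN1 window with the highest value in the R101H list, in coding sequence in the last of these parts (chromosome 6, 89662792 to 89662879), was also the highest MDN1 window with WT. It had 5.39 and 7.64 in the R101H replicates, 2.84, 4.91 and 6.85 in the R62W replicates, and 3.59 and 5.11 in the 2 WT replicates that passed. The R101H values lay above both WT values, while the R62W values spanned them. Pooled input counts were 1, 7 and 1, so the size of the ratio is poorly fixed. Immunoprecipitate counts were 153, 129 and 32. In the 3′ UTR of MDN1, 11 windows were listed with each substitution and 4 with WT, and the highest of these (89642968 to 89643062) had means of 4.2, 3.78 and 3.05.

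The WT windows of MDN1 all recurred with the substitutions, and those of the other members recurred about as often as WT windows in general. R101H shared 66 windows with WT, which is 12.7% of the R101H member windows and 91.7% of the WT ones, and R62W shared 68, which is 12.4% and 94.4%. Over all windows 11.9% of the R101H list and 14.2% of the R62W list were also in WT, and 72.0% and 79.6% of the WT list recurred. Without MDN1, R101H shared 18 member windows with WT, which is 5.81% of the R101H and 75% of the WT windows, and R62W shared 20, which is 5.76% and 83.3%. All 48 WT windows of MDN1 were in both substitution lists, and the 3 member windows listed in WT alone were RRP1 intron windows. Between the substitutions 390 windows were shared, 75.3% of the R101H and 71.2% of the R62W member windows. Over all windows these shares were 64.2% and 69.2%. In MDN1 the 192 shared windows were 92.3% and 95.5%, and in the other members the 198 shared windows were 63.9% and 57.1%.

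Substitution windows that WT also listed had higher medians than those it lacked, with the larger gap in MDN1. With R101H the median was 3.25 over the 66 member windows also in WT and 1.97 over the 452 others, and with R62W 2.70 over 68 and 1.84 over 480. In MDN1 the medians were 3.57 and 2.35 with R101H and 3.0 and 2.09 with R62W, and in the other members 2.03 and 1.77 with R101H and 2.06 and 1.72 with R62W. Over all windows these medians were 2.46 and 1.95 with R101H and 2.21 and 1.86 with R62W. Immunoprecipitate counts moved with them, at medians of 92 and 56.5 for member windows with R101H and 93.5 and 53 with R62W. Without MDN1 these were 66 and 51 with R101H and 74.5 and 45 with R62W.

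In windows listed in both groups, MDN1 had higher values with each substitution than with WT, while the other members had smaller differences. The 48 MDN1 windows had a median of 3.57 with R101H, 3.0 with R62W and 2.21 with WT. All 48 means were higher than WT with R101H (0.09 to 2.49) and all 48 with R62W (0.17 to 1.70), with median differences of 1.30 and 0.73. Outside MDN1 the median was 0.27 over 18 windows for R101H minus WT and 0.35 over 20 for R62W minus WT. Over all shared windows the medians were 0.60 and 0.26, and 82.5% and 72.4% of windows were higher than WT. Among all shared coding windows 88.2% and 79.9% were higher. Both comparisons use the same WT values, so they are not independent. Values cover passing replicates only, which left out replicates of WT and R62W and none of R101H.

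No member window passed the threshold when limma was fitted to all shared windows. For R101H minus WT, limma with Benjamini-Hochberg adjustment at 0.05 called 0 of 66 member windows and 0 of 11082 in all (0%). The lowest adjusted p was 0.162, and 21 member windows and 2365 of all windows had an unadjusted p under 0.05. For R62W minus WT it called 0 of 68 and 0 of 12263 (0%), with 15 and 1252 at an unadjusted p under 0.05. For R101H minus R62W it called 0 of 390 and 0 of 59874 (0%), with 5 and 1076. A replicate in which a window did not pass is missing from these fits.

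The fit was also run on windows for which no replicate of either group was missing. Here limma called 4 of 16 member windows for R101H minus WT, against 18.2% of all 2730 windows, and all 4 lay in MDN1 coding sequence and were higher with R101H (17.8% of all windows were called and higher). For R62W minus WT it called 0 of 16 member windows, against 0.0374% of all 2672. Here 7 member windows and 719 of all windows had an unadjusted p under 0.05. For R101H minus R62W it called 0 of 259 member windows, against 0% of all 34309. Here 5 member windows and 852 of all windows had an unadjusted p under 0.05. After each difference was centred on the median of the windows in its fit, limma called 0 of 16 member windows and 0 of 2730 in all for R101H minus WT. In this centred fit 3 member windows and 444 of all 2730 had an unadjusted p under 0.05. The 4 calls thus did not hold relative to the shift of all windows. With an input count of at least 10 in both lists, limma called 4 of 30 member windows for R101H minus WT, against 9.42% of all 6945 windows. For R62W minus WT it called 0 of 37 member windows, against 0.0131% of all 7656. Here 12 member windows and 1348 of all windows had an unadjusted p under 0.05. Of the 4 called with this input minimum, 3 were among the first 4. The other was also in MDN1 (89715711 to 89715769, difference 1.43, SE 0.38, limma adjusted p = 0.0441).

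The 4 windows are given from 5′ to 3′. The most 5′ one (89668083 to 89668151) had 4.17 and 4.86 with R101H, 2.28, 4.16 and 4.34 with R62W, and 1.68, 2.83 and 3.03 with WT, and its R101H minus WT difference was 2.00 (SE 0.51, limma adjusted p = 0.0479). A pair of neighbouring windows followed. The first (89654249 to 89654334) had 3.52 and 4.03 with R101H, 3.31, 3.35 and 3.72 with R62W, and 1.43, 1.93 and 2.21 with WT (difference 1.92, SE 0.38, limma adjusted p = 0.0456). The other (89654164 to 89654248) had 3.51 and 4.09 with R101H, 2.78, 2.79 and 2.99 with R62W, and 1.31, 1.82 and 2.19 with WT (difference 2.03, SE 0.40, limma adjusted p = 0.0456).

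The last (89652192 to 89652281) had 3.11 and 3.18 with R101H, 2.27, 2.64 and 3.16 with R62W, and 1.27, 1.37 and 1.53 with WT (difference 1.75, SE 0.30, limma adjusted p = 0.0456). In each of the 4 every R101H value lay above every WT value. The R62W values lay above every WT value in all but the most 5′ window, yet no R62W minus WT difference passed.

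**Figure D4:**
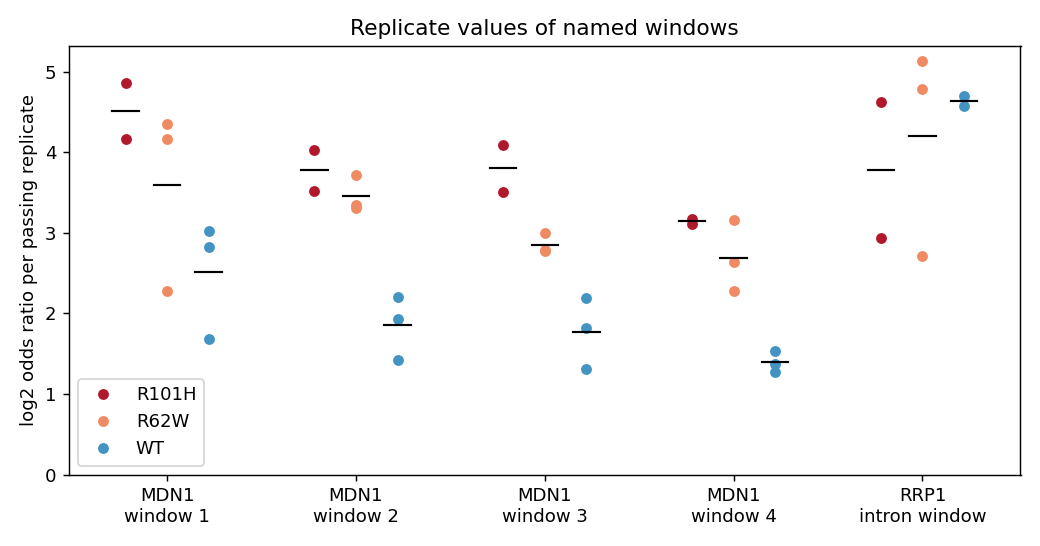
Log2 odds ratio of each passing replicate (points) and their mean (black line) with R101H, R62W and WT, for the 4 MDN1 coding windows called for R101H minus WT among windows enriched in every replicate, numbered from 5′ to 3′, and for the RRP1 intron window. R101H and WT points are apart in the MDN1 windows and overlap in the RRP1 window.

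Every passing R101H value was above every passing WT value in 39 of 66 member windows (59.1%), against 48.4% of all shared windows, and the reverse held in 1, the RRP1B intron window (3.84% of all). For R62W and WT the count was 24 of 68 (35.3%), against 24.1%, and the reverse held in 0 (4.24% of all). MDN1 gave 33 of the 39 and 20 of the 24. For R101H over R62W it was 73 of 390 (18.7%), near the 17.9% of all shared windows, and the reverse held in 8 (3.59% of all).

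The differences were also split by annotation. For R101H minus WT the median was 1.17 over 50 coding member windows and 1.08 over 6 in 3′ UTRs, and 0.08 over 9 in introns. Over all shared windows these were 0.63, 0.80 and 0.03. MDN1 gave 44 of the 50 coding and 4 of the 6 3′ UTR windows and none of the introns, so the split largely repeats MDN1 against the other members. Without MDN1 the medians were 0.52 over 6 coding, 0.40 over 2 3′ UTR and 0.08 over 9 intronic windows. For R62W minus WT they were 0.59 over 53 coding, 0.78 over 6 3′ UTR and 0.05 over 8 intronic member windows, against 0.33, 0.36 and -0.09 over all shared windows. Without MDN1 these were 0.33 over 9 coding and 0.68 over 2 3′ UTR windows. The largest R101H minus WT difference was in MDN1 coding sequence (89656751 to 89656801), at 2.49 (SE 0.77, limma adjusted p = 0.175), with 3.77 and 6.05 with R101H and 2.34 and 2.50 in the 2 passing WT replicates. The largest R62W minus WT difference, also in MDN1 (89676155 to 89676207), was 1.70 (SE 0.47, limma adjusted p = 0.391).

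**Figure D5:**
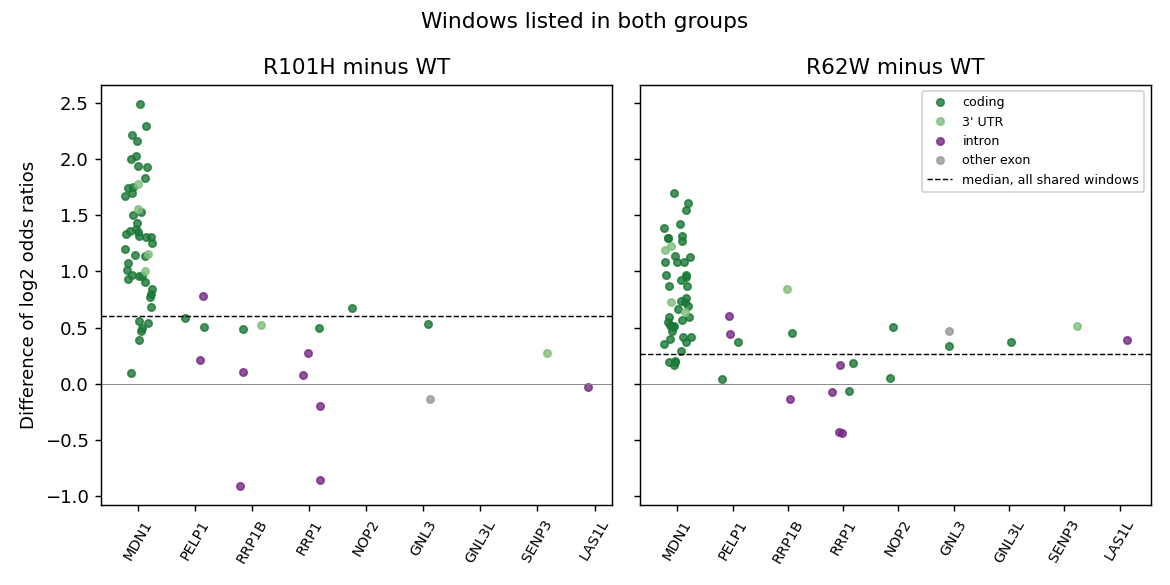
Difference of mean log2 odds ratios, R101H minus WT (left) and R62W minus WT (right), for each member window listed in both groups (points, coloured by annotation), with the median of all shared windows as a dashed line. MDN1 points lie above 0 in both panels, RRP1 points lie on both sides of 0, and GNL3L has no R101H point because its WT window was not listed there.

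Between the substitutions, more MDN1 windows were shared than the 48 shared with WT, so the median differences are not directly comparable. In those 48 windows the medians were 3.57 with R101H, 3.0 with R62W and 2.21 with WT. The median R101H minus R62W difference over those 48 alone is not given here. Over 192 shared MDN1 windows the median was 2.65 with R101H and 2.33 with R62W, a median difference of 0.35, and 165 were higher with R101H. Over the 198 shared windows of the other members the median difference was 0.11, with 127 higher with R101H, while over all 59874 shared windows it was 0.21 with 71.8% higher. By member, the medians ran from -0.42 in RPF1 (1 window) to 0.45 in WDR12 (1 window), with 0.44 over 9 windows in SDAD1, 0.22 over 24 in GNL3 and -0.10 over 10 in GTPBP4.

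The input counts behind these ratios were not alike in all lists. In the 16 member windows enriched in every replicate of R62W and WT, the pooled input counts were identical, at 249 in each list. In the 16 of R101H and WT they were 177 with R101H and 249 with WT, a ratio of 0.711, and in 259 windows of R101H and R62W they were 4918 and 7193, a ratio of 0.684. The labels do not tie inputs to lists, and the part of the input counts in the R101H differences was not tested.

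Other 60S factors had listed shares near those of the 8697 genes with a window in any list. Of 35 further genes of the pathway, 32 had a window with R101H, 31 with R62W and 12 with WT, and they held 277, 276 and 28 windows. These shares of 91.4%, 88.6% and 34.3% stood beside 93.5%, 89.5% and 38% of those 8697 genes. That background leaves out genes never listed, while the 35 include LLPH, which was in no list. The most windows were in URB1 (56, 52 and 6), URB2 (30, 28 and 5), DDX51 (24, 23 and 1) and GRWD1 (18, 24 and 3), of which the first pair are large nucleolar proteins, DDX51 is an RNA helicase and GRWD1 is a nucleolar WD-repeat protein. Of 45 factors of 40S assembly, 43, 39 and 11 had a window (95.6%, 86.7% and 24.4%), with 439, 400 and 25 windows. Their coding shares of 72.0%, 72.3% and 44% and median values of 1.82, 1.81 and 1.94 stood beside 57.7%, 56.2% and 37.5% and 1.79, 1.75 and 1.69 in the 60S members other than MDN1. MDN1 had medians of 2.59, 2.31 and 2.21, above the 2.00, 1.90 and 2.03 of all windows in each list.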

How the data were processed

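RNA recovered with V5-tagged RPS19 in 8 immunoprecipitates was compared with 3 size-matched inputs. Per the submitters' processing notes, fastp, STAR and GRCh38 were used; no source used here gives the window caller or its version. Each immunoprecipitate group has 1 deposited window table over all its replicates. Per the file headers, it holds pooled IP and input read counts, log2 odds ratios (lowest, mean, highest), p-values and q-values, the GC fraction and, as another quantity, the number of passing replicates. The listed windows had a highest q of at most 0.2.

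Lists were joined at identical coordinates. Positions were written 1-based. The lowest, mean and highest values give each passing replicate's log2 value without its number, and these were fitted with limma 3.58.1 (R 4.3.3; lmFit, eBayes) over all shared windows, adjusted at 0.05. The script was tested on simulated data. Pooled counts allow no count model. The members, other gene lists and named windows (the 8 members with most windows, the highest window per member, limma calls, absent members and the 5 largest and smallest differences among windows in all 3 lists) were chosen with earlier results of these data known. Alternatives were a stricter q, an input minimum of 10, windows passing in every replicate, equal list lengths, windows of 1 gene and leaving out MDN1. Repeat tables were not used.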

Additional observations from a re-analysis of the deposited data

Results flagged for a closer look

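The 4 MDN1 coding windows on chromosome 6 that differed between R101H and WT by limma, among windows enriched in every replicate, had R101H minus WT differences of 1.75 (89652192 to 89652281), 2.03 (89654164 to 89654248), 1.92 (89654249 to 89654334) and 2 (89668083 to 89668151). With 498 of 2730 windows called in that fit and 0 after centring, they share their direction with most windows.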

How the results depend on the processing

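No paired analysis was possible because the deposited values carry no replicate numbers, and leaving out each replicate was not run for the same reason. Of the alternative values of the main results, 80 stayed close to the value reported (within 1.5 times for counts, the counting interval for shares and 1 replicate SD for medians) and 43 did not. Some of the 80 could not move, since every R101H window passed in both replicates and WT was the shortest list. A change of sign was possible only for the median differences, and none of these changed sign. Without MDN1, member windows numbered 310 with R101H, 347 with R62W and 24 with WT, coding shares were 57.7%, 56.2% and 37.5%, the WT median was 1.69 and the R101H minus WT median 0.27. With a maximum q of 0.05, windows numbered 287, 204 and 11, WT listed 3 members, coding shares were 79.1% with R101H and 79.4% with R62W, and medians were 2.44, 2.34 and 2.82. With lists of equal length, R101H had 147 windows in 11 members and R62W 150 in 14, with coding shares of 85.0% and 78% and medians of 2.89 and 2.54. With windows enriched in every replicate, R62W had 288 windows (77.4% coding) and WT 16 in 4 members, the median differences were 1.47 for R101H minus WT and 1.0 for R62W minus WT, and limma called 4 member windows and 498 in all for R101H minus WT and 1 in all for R62W minus WT. With an input count of at least 10, windows numbered 345 with R101H and 38 with WT, coding shares were 83.2% with R101H and 80.5% with R62W, and limma called 4 member windows and 654 in all for R101H minus WT and 1 in all for R62W minus WT. Centring on all shared windows gave an R101H minus WT median of 0.39, and 1 value per member gave 0.28. The position correlation of MDN1 with WT was 0.079 on the lowest replicate values; these correlation settings were chosen after seeing the data. The cause of these changes was not tested. Windows with input counts near 0 have poorly fixed ratios, and a window missing from the shorter WT list may be below detection at its depth.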
